A study of Mus musculus with 5 samples.

Results

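The genes described are those of V(D)J recombination and of developing thymocytes, measured in single cells of the mouse aortic arch. They were taken as a list of names, 10 of the 26189 genes in the tables of molecules per cell: Rag1, Rag2, Dntt, Ptcra, Arpp21, Aqp11, Themis, Ccr9, Cd8b1 and Cd8a. Cd4 was read beside them. The list was chosen with earlier results of these data known. Counts of its genes set beside shares of all genes are therefore description and no independent support. The study asked about serum amyloid A3 in atherosclerosis. Live CD45+ cells, that is, leukocytes by their sort, were taken from the aortic arch and run on BD Rhapsody, a microwell system that captures whole transcriptomes with molecular barcodes. The cells came from female mice labelled 12-week-old, in 1 multiplexed sample of C57BL/6J and of C57BL/6N-Saa3tm1.1(KOMP)Vlcg/MbpMmucd, a Saa3 knockout strain. The design text speaks of littermates, and both genotypes had 1 intraperitoneal dose of an AAV8 vector for a gain-of-function mPCSK9 (D377Y) under the hAAT promoter, a liver promoter, followed by a Western diet for 18 weeks. Since the diet is longer than the labelled age, the age at which the cells were taken is not known here. A tag on each cell gave 2 pools, 1 per genotype, and the number of mice in each was not stated. The 4 bone-marrow-derived macrophage samples, 2 of them untreated and 2 with SAA3 at 100 ng/mL for 24 h, were not analysed here.

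RAG1 and RAG2 form the recombinase that cuts DNA at the V, D and J segments of antigen receptor genes, and the end joining proteins close the breaks. Terminal deoxynucleotidyl transferase, made from Dntt, adds nucleotides at the joins, and the pre-T-cell receptor alpha chain, made from Ptcra, pairs with the first rearranged beta chain and drives a burst of division. Thymocytes then carry both Cd4 and Cd8, rearrange the alpha chain and are selected. In a mouse this takes place in the thymus, and mature T cells no longer transcribe Rag1, Rag2 or Dntt.

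Beyond the genes' own values, the following holds for all cells. The pool labelled wild-type kept 833 of 889 cells and the pool labelled Saa3-/- kept 823 of 854, after cells with over 25% of their molecules from mitochondrial genes were removed. Their medians were 6415 and 4698 molecules per cell, and no barcode was in both pools. The summed level of Saa3 did not follow the labels. It had 1079 molecules in 170 cells of the pool labelled wild-type, or 148 counts per 1000000 molecules (CPM), and 1268 molecules in 114 cells of the pool labelled Saa3-/-, or 242 CPM. That order rested on few cells: the 2 cells with most Saa3 held 1124 of the latter pool's molecules and 382 of the former's. Without those 2 cells of each pool, an alternative chosen after seeing the data, 697 molecules (96.2 CPM) and 144 molecules (27.8 CPM) were left, the order the labels give. The pools are named by their labels throughout. A doublet caller marked 10 of the 1656 cells. Intervals given below are exact (Poisson for levels, Clopper-Pearson for shares) at 95%. Those of differences in percentage points are not exact, and join Wilson limits by Newcombe's method, also at 95%. All of them take cells or molecules as independent draws and cover counting error only. With 1 pool per genotype no difference was tested, and a difference between pools cannot be told apart from one between mice or tags.

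The starts of the 4 genes that act on the rearranging receptor loci or pair with their first product are shown first. Over all kept cells Rag1, Rag2 and Dntt differed alike between the pools, and Ptcra, the gene with the fewest molecules, did not. A link between the letters below and the pools was not tested. Each line is 5′ to 3′ on the gene's strand, from 250 bases before to 50 after the annotated start, from RefSeq on GRCm38.p6. Capitals mark each E-box (CANNTG, which reads the same way on both strands) and each Runx motif (TGTGGT or its reverse complement ACCACA).
Rag1: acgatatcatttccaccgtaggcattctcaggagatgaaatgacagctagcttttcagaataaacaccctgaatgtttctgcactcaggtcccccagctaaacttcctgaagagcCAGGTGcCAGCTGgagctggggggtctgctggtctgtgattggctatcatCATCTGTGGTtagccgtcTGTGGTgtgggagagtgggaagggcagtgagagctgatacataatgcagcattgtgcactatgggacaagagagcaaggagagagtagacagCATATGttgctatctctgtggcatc
Rag2: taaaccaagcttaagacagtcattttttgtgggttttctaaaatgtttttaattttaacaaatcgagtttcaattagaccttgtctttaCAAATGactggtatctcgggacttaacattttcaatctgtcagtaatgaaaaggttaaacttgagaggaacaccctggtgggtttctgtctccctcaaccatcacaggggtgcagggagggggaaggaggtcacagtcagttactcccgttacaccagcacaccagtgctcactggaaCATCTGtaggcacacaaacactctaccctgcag
Dntt: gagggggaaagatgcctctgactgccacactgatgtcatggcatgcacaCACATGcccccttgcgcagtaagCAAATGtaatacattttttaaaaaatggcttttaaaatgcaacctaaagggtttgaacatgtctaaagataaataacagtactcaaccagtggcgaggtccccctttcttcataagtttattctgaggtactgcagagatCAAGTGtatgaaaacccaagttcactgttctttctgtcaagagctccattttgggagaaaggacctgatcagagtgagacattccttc
Ptcra: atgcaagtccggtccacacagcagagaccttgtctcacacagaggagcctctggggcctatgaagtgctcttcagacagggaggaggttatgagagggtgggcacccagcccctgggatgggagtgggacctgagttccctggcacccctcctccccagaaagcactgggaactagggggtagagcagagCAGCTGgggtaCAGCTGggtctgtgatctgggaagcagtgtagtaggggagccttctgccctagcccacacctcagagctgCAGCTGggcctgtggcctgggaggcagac
The Rag1 window, chr2:101649483-101649782 on the minus strand, held 4 E-boxes and 2 Runx motifs, and 1 E-box overlapped 1 Runx motif. The Rag2 window, chr2:101624462-101624761 on the plus strand, held 2 E-boxes. The Dntt window, chr19:41029025-41029324 on the plus strand, and the Ptcra window, chr17:46763663-46763962 on the minus strand, held 3 each. None of these 3 held the Runx letters. Of 32851 windows of the same length over all genes, 72.3% held an E-box, 39.6% held 2 or more, 17.6% held 3 or more and 6.49% held 4 or more. A Runx motif was found in 16.8% of them, and 1.81% held 2 or more. A match describes letters in a window and is not a binding site. RefSeq windows matched 9 of the 10 genes, and 7 of these had a single window.

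On GRCm38 with GENCODE annotation, Rag1 (ENSMUSG00000061311.6) spans chr2:101638282-101649501 on the minus strand and Rag2 (ENSMUSG00000032864.4) spans chr2:101624718-101632529 on the plus strand. Their 3′ ends face each other across 5752 bases. Both overlap B230118H07Rik, which had 181 molecules, 15 of them in the thymocyte-like and cycling T-lineage cells described next. Ptcra (chr17:46755663-46763712, minus strand) is overlapped on the opposite strand by Gm26904, which had 176 molecules. Ccr9 is overlapped on the opposite strand by Lztfl1, which had 325 molecules, among other genes. Arpp21 and Themis also have overlapping genes on the opposite strand. The strand setting of the counting was not given in the sources used here, so molecules of overlapping genes cannot be told apart. Dntt lies at chr19:41029275-41059525. Cd8b1 (chr6:71322788-71337494) and Cd8a (chr6:71373427-71379173) lie on the same strand, 35932 bases apart.

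Thymocyte-like cells were 1 cluster of 60 cells. The clusters were made without the 10 genes, Cd4 and Saa3, so the levels of these genes in a cluster were not what formed it. The cluster was named from 12 other thymocyte markers, and 25% or more of its cells had each of 11 of these; Mns1, at 20.0%, was the other. Satb1, a chromatin organizer, was found in 60 of the 60 cells, and Endou, an endoribonuclease gene, at 532 CPM against 6.72 CPM in the T-cell-like cells. Not all 12 set the cluster apart. Tox was at 443 CPM against 437 CPM in the T-cell-like cells, and Ets2 at 260 CPM against 255 CPM in macrophage-like cells. Satb1 was at 2421 CPM and Lef1 at 237 CPM, against 1584 and 709 CPM in cluster 7, described below. A cycling cluster was split by 8 T-lineage genes, which gave 45 cycling T-lineage cells. These 2 classes held 105 of the 1656 cells. The nearest cells were cluster 7, with 101 cells led by Lef1 and Satb1 and left unnamed because 2 thymocyte markers and no T-cell marker were among its 10 leading genes, and 164 T-cell-like cells. The T-cell-like cells were cluster 4, with 145 cells led by Klrc1, Ifng and Ccl5, and cluster 17, with 19 cells, 18 of them from the pool labelled wild-type, led by the muscle genes Ttn and Neb and by Tnfrsf4. Median depth was 3271.5 molecules in the thymocyte-like cells, 9723 in the cycling T-lineage cells, 3733 in cluster 7, 4268.5 in the T-cell-like cells and 7817 in 355 macrophage-like cells, a type that should lack the recombination genes.

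Of the 5090 molecules of the 10 genes, 3187 (62.6%) were in the thymocyte-like and cycling T-lineage cells. The share was 89.0% for Rag1, 87.2% for Rag2, 78.5% for Dntt, 70.8% for Arpp21 and 69.7% for Aqp11. For Cd8b1, Ccr9, Cd8a and Themis it ran from 58.6% down to 52.8%, and for Ptcra it was 45.5%. Of the 8 genes with enough molecules, 7 were at least 2-fold higher in thymocyte-like than in T-cell-like cells, where 28.6% of 6991 genes differed by that much in either direction and 15.8% were higher. Cd8a, at a log2 ratio of 0.93, was the other. Against cluster 7 it was 8 of 8, where 21.3% of 5509 genes differed and 13.2% were higher.

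**Figure D1:**
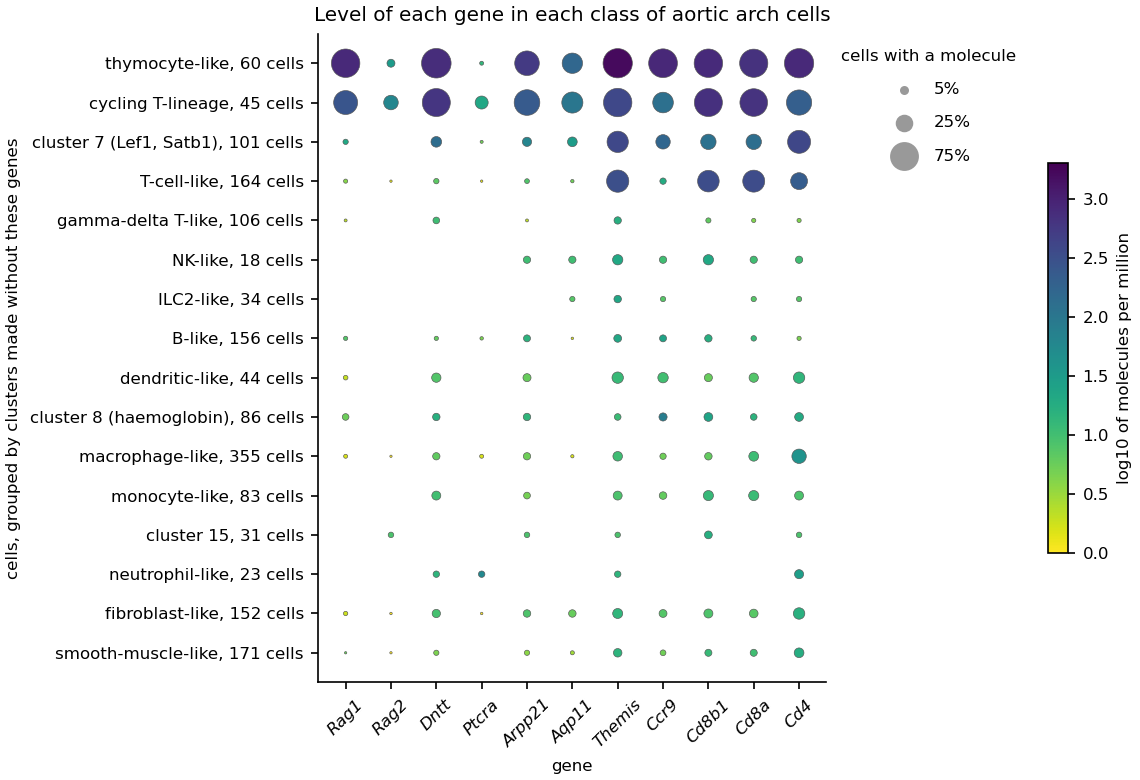
Each of the 10 genes and Cd4 (columns) in each class of 18 or more cells (rows), with dot colour for the level (log10 of CPM over the class's summed molecules) and dot area for the share of cells with at least 1 molecule; an empty place is a class with none. Rag1 stands at 837 CPM in 85.0% of thymocyte-like cells and at 1.60 CPM in 1.69% of macrophage-like cells, while Themis and both Cd8 genes are also large dots in T-cell-like cells.

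Rag1, the catalytic subunit of the recombinase, was found in 51 of 60 thymocyte-like cells (85.0%) at 837 CPM (721 to 966). Its median was 2 molecules per cell there and the highest was 11. In cycling T-lineage cells it was found in 27 of 45 (60.0%) at 273 CPM (232 to 320). Cluster 7 had 8 molecules in 3 of 101 cells, or 20.7 CPM. T-cell-like cells had 3 molecules and macrophage-like cells 6, the latter in 6 of 355 cells (1.69%) at 1.60 CPM. When each cell was thinned to 2000 molecules, 44 of 58 thymocyte-like cells (75.9%) and 20 of 45 cycling T-lineage cells (44.4%) still had a Rag1 molecule. None of 349 macrophage-like cells did at that depth, which allows a share of cells with a molecule of up to 0.860% by a limit of 3 counts and up to 1.05% by the exact interval. It says nothing of cells that express the gene below that depth. The highest Rag1 count outside the lymphoid classes was 8 molecules in 1 smooth muscle-like cell of 14534 molecules, which also had at least 5 of the 10 genes.

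Rag2, the recombinase's partner subunit, had 47 molecules in 20 cells. Thymocyte-like cells had 7 molecules in 4 cells (31.3 CPM, 12.6 to 64.5) and cycling T-lineage cells had 34 in 10 cells (60.7 CPM, 42.0 to 84.8). Of the latter 34, 13 came from 1 cell. No molecule was found in cluster 7, 1 was found in T-cell-like cells and 2 in macrophage-like cells. Of the 20 cells with Rag2, 13 also had Rag1, and all 13 were thymocyte-like or cycling T-lineage cells. Thinned to 2000 molecules, Rag2 was found in 2 of 58 and 2 of 45 cells, so its order between these classes was not detectable at this depth per cell.

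Dntt was found in 55 of 60 thymocyte-like cells (91.7%, 752 CPM, 642 to 874) and in 37 of 45 cycling T-lineage cells (82.2%, 614 CPM, 551 to 682). The median was 2 molecules per thymocyte-like cell, with a highest of 12, and 6 per cycling T-lineage cell, with a highest of 39. In cluster 7 it was at 137 CPM (103 to 179), from 53 molecules in 12 cells. T-cell-like cells had 5 molecules (6.72 CPM). Macrophage-like cells had 24 in 20 cells (5.63%), at 6.41 CPM, and 9 of 349 (2.58%) when thinned, against 40 of 58 thymocyte-like cells (69.0%).

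Ptcra had 33 molecules in 22 cells of the 1656. Thymocyte-like cells had 3, all in 1 cell, and cycling T-lineage cells had 12 in 8 cells (21.4 CPM, 11.1 to 37.4). Their 2 intervals, the first being 2.77 to 39.2 CPM, overlap. Macrophage-like cells had 6 molecules in 6 cells, and 1 neutrophil-like cell had 4. In this deposit Ptcra was thus the gene with the fewest molecules of the 10, and its levels are the least precise.

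Themis, a signalling adaptor needed when thymocytes are selected, was found in 54 of 60 thymocyte-like cells at 1651 CPM (1487 to 1828), with a median of 5 and a highest of 21 molecules per cell. It was lower in cycling T-lineage cells (389 CPM), cluster 7 (386 CPM) and T-cell-like cells (321 CPM). The intervals of these last 3 levels overlap, at 339 to 444, 326 to 453 and 282 to 365 CPM. Macrophage-like cells had 10.7 CPM. Themis thus had its highest level in thymocyte-like cells but was found in 85 of 164 T-cell-like cells, unlike Rag1 and Dntt.

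Arpp21, which encodes a phosphoprotein that binds RNA and whose transcript hosts a microRNA, was found in 38 of 60 thymocyte-like cells (541 CPM) and 31 of 45 cycling T-lineage cells (234 CPM). It had 62.1 CPM in cluster 7, 8.07 CPM in T-cell-like cells and 5.34 CPM in macrophage-like cells. Aqp11, a member of the aquaporin channel family, was found in 26 thymocyte-like cells (161 CPM) and 21 cycling T-lineage cells (99.9 CPM), whose intervals of 113 to 223 and 75.5 to 130 CPM overlap. It had 31.1 CPM in cluster 7, 5.38 CPM in T-cell-like cells and 1.60 CPM in macrophage-like cells. With both pools together, each gene had the same order of classes as Rag1, but not within the pool labelled Saa3-/- alone, where Aqp11 was at 146 CPM in thymocyte-like and 185 CPM in cycling T-lineage cells, with overlapping intervals.

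Ccr9, the receptor for the chemokine CCL25 that draws T-cell progenitors into the thymus and lymphocytes into the small intestine, was found in 52 of 60 thymocyte-like cells at 859 CPM (742 to 990). In cycling T-lineage cells it had 123 CPM (95.8 to 156), which overlaps the 168 CPM (130 to 214) of cluster 7. T-cell-like cells had 18.8 CPM. It also stood out in a set of cells with no thymocyte name: cluster 8, of 86 cells led by haemoglobin genes, had 59 molecules in 6 cells (82.2 CPM). Of the cells with at least 5 molecules of Siglech, a plasmacytoid dendritic cell marker, 3 of 4 were in cluster 8. All 4 had Ccr9, with 60 molecules in all and 35 in 1 cell, and 3 of the 4 had Dntt, with 10 molecules, while Rag1 had 1 and Rag2 none.

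Cd8a and Cd8b1 encode the alpha and beta chains of the CD8 coreceptor. Cd8b1 was at 796 CPM in thymocyte-like cells, 696 CPM in cycling T-lineage cells, 339 CPM in T-cell-like cells and 116 CPM in cluster 7. Cd8a was at 667, 660, 350 and 132 CPM in the same order. Neither gene differed between the first 2 classes beyond its intervals, which were 684 to 922 and 629 to 769 CPM for Cd8b1 and 564 to 783 and 595 to 731 CPM for Cd8a. Within the pool labelled Saa3-/- the Cd8a intervals did not overlap, at 647 CPM (539 to 769) and 971 CPM (841 to 1116). Cd8a made up 45.6% of the Cd8a and Cd8b1 molecules in thymocyte-like cells (40.1 to 51.1), 48.7% in cycling T-lineage cells and 50.8% in T-cell-like cells. T-cell-like cells had either gene in about as large a share of cells as each other, 83 of 164 for Cd8a and 80 of 164 for Cd8b1.

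The number of the 10 genes found in a cell separated the classes. At least 5 were found in 101 cells: 56 of the 60 thymocyte-like cells, 34 of the 45 cycling T-lineage cells, 3 T-cell-like cells, 4 cells of cluster 7 and 4 others. The 4 others were B-like, fibroblast-like, smooth muscle-like and cluster 8 cells of 6647 to 39597 molecules. At the other end 979 cells had none of the 10, and 1 cell, a cycling T-lineage cell of the pool labelled Saa3-/-, had all 10. With every cell thinned to 2000 molecules, at least 3 were found in 56 of 58 thymocyte-like cells, 32 of 45 cycling T-lineage cells, 22 of 164 T-cell-like cells and 8 of 93 cells of cluster 7. All 101 cells had at least 3 of the 12 thymocyte markers, and 99 had at least 3 of the 8 T-cell markers. These counts are no independent support, since 90 of the 101 cells were in the thymocyte-like and cycling T-lineage classes. The 12 markers named the thymocyte-like cluster, and most genes that split the cycling cells are also T-cell markers. Markers of other types were present in some as well: 52 of the 101 cells had at least 3 of 6 fibroblast markers, at 1871.5 CPM against 5647 CPM in the other cells, and 39 had at least 3 of 7 macrophage markers, at 664 against 5627 CPM. The part of such RNA in these counts was not tested.

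**Figure D2:**
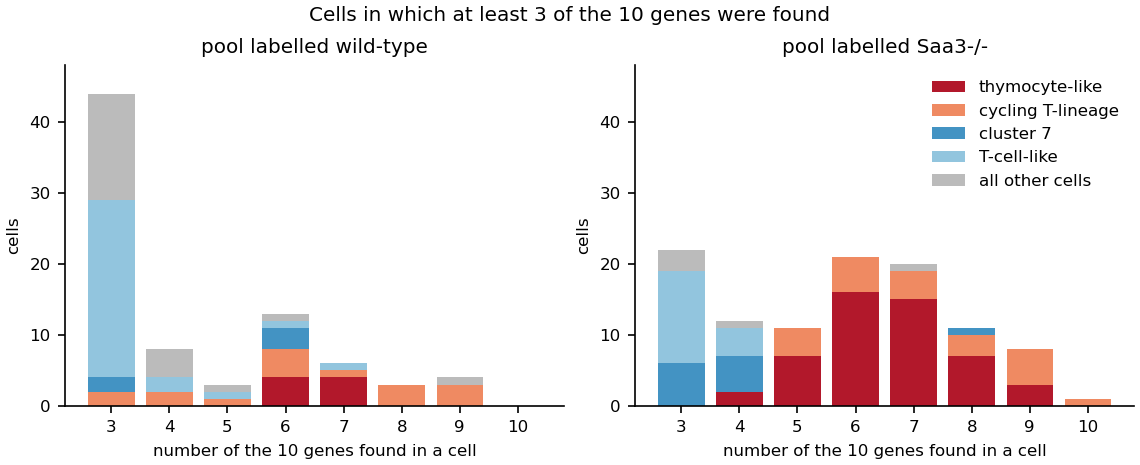
Number of cells, by how many of the 10 genes were found in them (from 3 to 10), for each pool and cell class. Thymocyte-like cells of the pool labelled Saa3-/- make up 48 of its 72 cells with at least 5 of the genes, and 8 of the 29 such cells of the pool labelled wild-type are thymocyte-like.

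Both Cd4 and Cd8b1 were found in 109 cells, the pattern of the double-positive stage. Of these 46 were thymocyte-like (76.7% of that class, 64.0 to 86.6), 28 were cycling T-lineage cells (62.2%, 46.5 to 76.2), 10 were in cluster 7, 5 were T-cell-like and 20 were others. Rag1 was found in 68 of the 109 (62.4%), against 11 of 229 cells with Cd4 alone (4.80%), 14 of 166 with Cd8b1 alone (8.43%) and 12 of 1152 with neither (1.04%). Dntt followed the same order, with 76 of 109, 22 of 229, 20 of 166 and 54 of 1152 cells. These shares mix the classes, and the order did not hold within thymocyte-like cells. Rag1 was found there in 40 of 46 cells with both, 6 of 8 with Cd4 alone and 5 of 5 with Cd8b1 alone. Dntt was found in 43, 7 and 5 of the same cells. For Rag1 the counts were 21 of 28, 0 of 2 and 5 of 9 in cycling T-lineage cells. In cluster 7 they were 1 of 10, 0 of 46 and 0 of 15. Themis was found in 93 of the 109 cells, Ccr9 in 70, Arpp21 in 62, Aqp11 in 46, Rag2 in 13 and Ptcra in 7. Cd4 was itself found in 77 of 355 macrophage-like cells (21.7%), and in 26 of 349 (7.45%) when thinned, so a Cd4 molecule alone did not mark a T-lineage cell here.

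**Figure D3:**
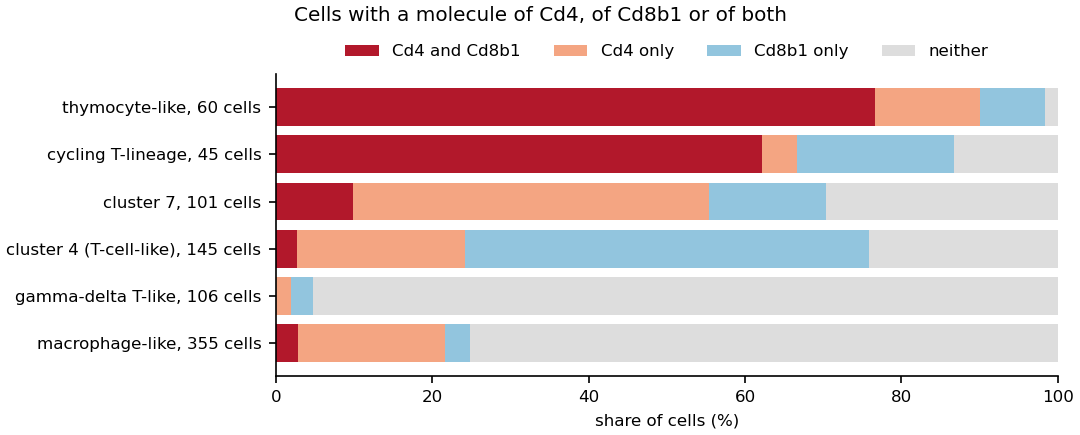
Share of the cells of 6 groups (percent, stacked to 100) in which Cd4 and Cd8b1, Cd4 only, Cd8b1 only or neither were found. Cells with both make up 76.7% of thymocyte-like and 62.2% of cycling T-lineage cells, and most macrophage-like cells have neither.

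Across the 1656 cells the log-scaled level of each gene was correlated with that of the other 9. Pearson's r was 0.75 for Dntt and for Rag1, 0.72 for Cd8b1, 0.68 for Cd8a and Themis, 0.64 for Arpp21 and Ccr9, 0.58 for Aqp11, 0.34 for Rag2 and 0.13 for Ptcra. Within the 105 thymocyte-like and cycling T-lineage cells r was 0.54 for Dntt, 0.52 for Cd8b1, 0.51 for Themis and 0.49 for Rag1. It was 0.44 for Ccr9, 0.42 for Aqp11, 0.41 for Cd8a, 0.37 for Arpp21, 0.34 for Rag2 and -0.03 for Ptcra. These values describe cells that share libraries and depth, and the low values for Rag2 and Ptcra are of genes with 47 and 33 molecules. Of 105 cells with Rag1, 82 had Dntt, and Dntt was found in 172 cells, so Rag1 cells were 78.1% with Dntt and Dntt cells 47.7% with Rag1. By the same measure, the 10 genes outside the list most like the mean of the list were Endou (0.72), Myb (0.69), Tcf7 (0.65), Trbc2 (0.64), Syt13 (0.61), Lck (0.61), Nsg2 (0.59), Satb1 (0.55), Wdr78 (0.53) and Sox4 (0.52). Cd4 came next, at 0.51.

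Some of the most abundant list genes in thymocyte-like cells are given next, not those of every list. Trbc2, the receptor beta constant gene, was at 4564 CPM and found in all 60 cells, Satb1 at 2421 CPM, Tcf7, a T-lineage factor, at 2251 CPM, and Nr4a1, which receptor signalling induces, at 1154 CPM. Hmgb1 was at 653 CPM, Hmgb2 at 358 CPM and Xrcc6 at 233 CPM. Pcna, of the replication fork, was at 331 CPM, and Top2a, a mitotic topoisomerase, at 44.7 CPM. Of B cell progenitor genes, Ebf1 had 6 molecules, Cd93 1 and Igll1 none.

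Among other genes of the pathway, the end joining and recombination partners were compared between thymocyte-like and T-cell-like cells. Over all 6991 genes in this comparison 15.8% were at least 2-fold higher and 12.8% lower in thymocyte-like cells. Of 11 partners 4 were at least 2-fold higher and none was lower: Xrcc6 (log2 ratio 3.32), a Ku subunit that binds broken ends, Lig4 (3.32), the ligase of end joining, Dclre1c (1.62), the Artemis nuclease that opens hairpin ends, and Hmgb1 (1.01), a DNA-bending protein that aids the recombinase. Their median log2 ratio was 0.43, beside 0.18 over all genes and 5.11 over the 8 listed genes. Of 16 T-lineage transcription factors 8 were higher, among them Myb (3.56) and Satb1 (3.21). Id2 (-1.59) and Runx3 (-2.61), the latter a factor of mature CD8 T cells, were lower. Of 12 T cell receptor complex genes 3 were higher, Trbc1, Trbc2 and Cd247, and none was lower. Of 12 genes of selection and egress 4 were lower, including the interleukin-7 receptor gene Il7r (-3.63), Ccr7 and S1pr1, and none was higher. Of 6 genes of the early stages 4 were lower, Il2ra, Dtx1, Nrarp and Cd44. Of 5 cell cycle genes 1 was higher, and the single B cell progenitor gene with enough molecules was not. Of 4 genes of the plasmacytoid dendritic cell list, Ly6d (7.12) and Tcf4 were higher and Irf8 was lower. Dclre1c, Id2, Runx3 and the genes named here of the last lists were chosen after their values were seen. Dclre1c was not particular to thymocyte-like cells: 385 of its 759 molecules were in macrophage-like cells, in 183 of 355 cells at 103 CPM.

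Cycling T-lineage cells were then set against thymocyte-like cells. The cycling cluster was named by cell cycle genes (at least 5 of 10 found in 50% of its cells), so those genes are no result here. With both pools together, 4 of the 9 genes with enough molecules were at least 2-fold lower in the cycling cells and none was higher. Over 6584 genes 35.4% passed that size in either direction and 19.3% were lower. Lower were Ccr9 (log2 ratio -2.80), Themis (-2.08), Rag1 (-1.61) and Arpp21 (-1.21), and so was Cd4 (-1.99). Dntt (-0.29), Cd8b1 (-0.20), Cd8a (-0.02) and Aqp11 (-0.70) were within that size, and Rag2 was at 0.88.

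These sums mixed the pools unequally, since 52 of 60 thymocyte-like but 23 of 45 cycling T-lineage cells were labelled Saa3-/-, so the comparison was repeated within each pool, an alternative chosen after seeing the data. Within the pool labelled Saa3-/- 3 of 9 genes were at least 2-fold lower in the cycling cells, where 29.9% of 4443 genes passed that size and 17.7% were lower. These were Ccr9 (828 and 223 CPM, -1.88), Themis (1622 and 578 CPM, -1.48) and Rag1 (839 and 408 CPM, -1.04). Arpp21 was below 2-fold there, at 571 and 418 CPM (-0.45). Dntt was higher in the cycling cells, at 743 CPM (627 to 873) and 1025 CPM (891 to 1173), a log2 ratio of 0.46, and so was Cd8a (0.59). Rag2 passed 2-fold (1.59) on 7 and 23 molecules, with overlapping intervals.

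Within the pool labelled wild-type, with 8 and 22 cells, 6 of 8 genes were at least 2-fold lower in the cycling cells, where 48.4% of 3876 genes passed that size and 21.6% were lower. They were Ccr9 (-4.07), Themis (-2.76), Aqp11 (-2.49), Rag1 (-2.10), Arpp21 (-1.37) and Dntt (-1.16), the last at 822 and 375 CPM. Ccr9, Themis and Rag1 were thus past 2-fold lower in both pools, while Dntt lay in opposite directions. All these are shares of all molecules in cells that differed in depth, 3271.5 against 9723 at the median. A lower share thus need not be a lower number of molecules per cell. Over both pools, medians per thymocyte-like and per cycling T-lineage cell were 3 and 0 molecules for Ccr9 and 5 and 3 for Themis. They were 2 and 2 for Rag1 and 1 and 2 for Arpp21. With both pools together, 3 of 10 end joining genes were higher in the cycling cells, Hmgb2 (2.75), H2afx (2.45) and Hmgb1 (1.52), and none was lower. Over 6584 genes 35.4% passed that size in either direction there and 19.3% were lower. As a share in either direction, 3 of 10 was thus not above that of all genes. The cycling cluster was picked by cell cycle genes, and the part of division in these 3 was not tested.

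**Figure D4:**
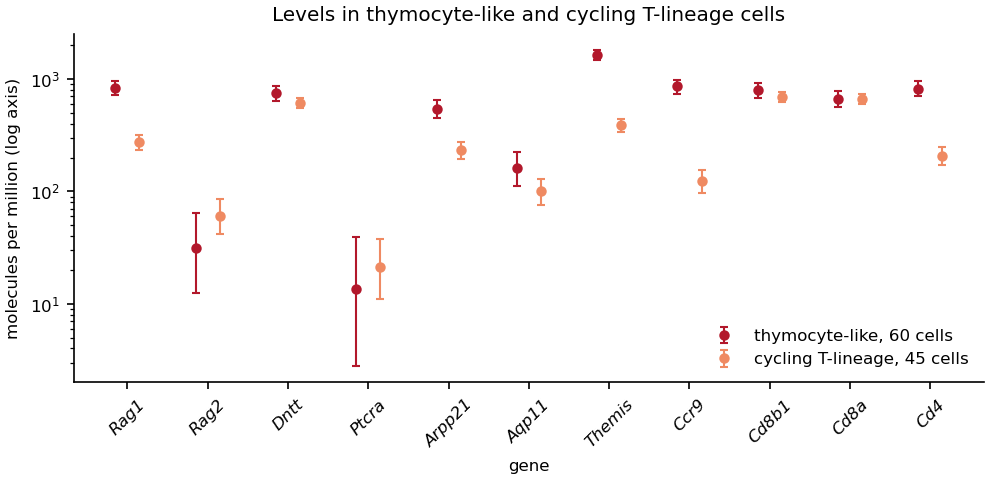
Levels of the 10 genes and Cd4 in thymocyte-like cells and in cycling T-lineage cells, over both pools together, in CPM on a log scale with exact 95% Poisson intervals. Ccr9, Themis, Rag1 and Arpp21 lie at least 2-fold lower in the cycling cells; within the pool labelled Saa3-/- Arpp21 does not, and Dntt lies higher there (743 and 1025 CPM).

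Between the tag pools, 7 of the 10 genes were at least 2-fold higher in CPM in the pool labelled Saa3-/- and none was lower. Over 14102 genes 4.21% passed that size in either direction and 2.72% were higher. The genes' median log2 ratio was 1.28, beside 0.07 over all genes. Rag1 had 113 molecules (15.5 CPM, 12.8 to 18.6) in the pool labelled wild-type and 269 (51.4 CPM, 45.5 to 57.9) in the pool labelled Saa3-/-, a log2 ratio of 1.73. Rag2 had 15 and 32 molecules, 2.06 and 6.12 CPM (1.55). Dntt had 219 and 433 molecules, 30.0 and 82.8 CPM (1.46). Of the 10 genes, Ptcra was the one whose intervals overlapped between the pools.

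Ptcra was the one gene with more molecules in the pool labelled wild-type, 21 against 12, at 2.88 and 2.29 CPM (-0.30). Arpp21 stood at 15.2 and 46.8 CPM (1.62), Ccr9 at 22.9 and 57.5 CPM (1.33), Aqp11 at 6.72 and 15.9 CPM (1.23) and Themis at 58.0 and 131.5 CPM (1.18). The CD8 genes differed by less than 2-fold. Cd8b1 had 58.4 and 104 CPM (0.83) and Cd8a 58.2 and 98.4 CPM (0.76). Cd4 was at 52.5 and 91.9 CPM (0.81). In such sums the number of cells of a type and the RNA per cell are mixed, so the classes were taken apart next.

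**Figure D5:**
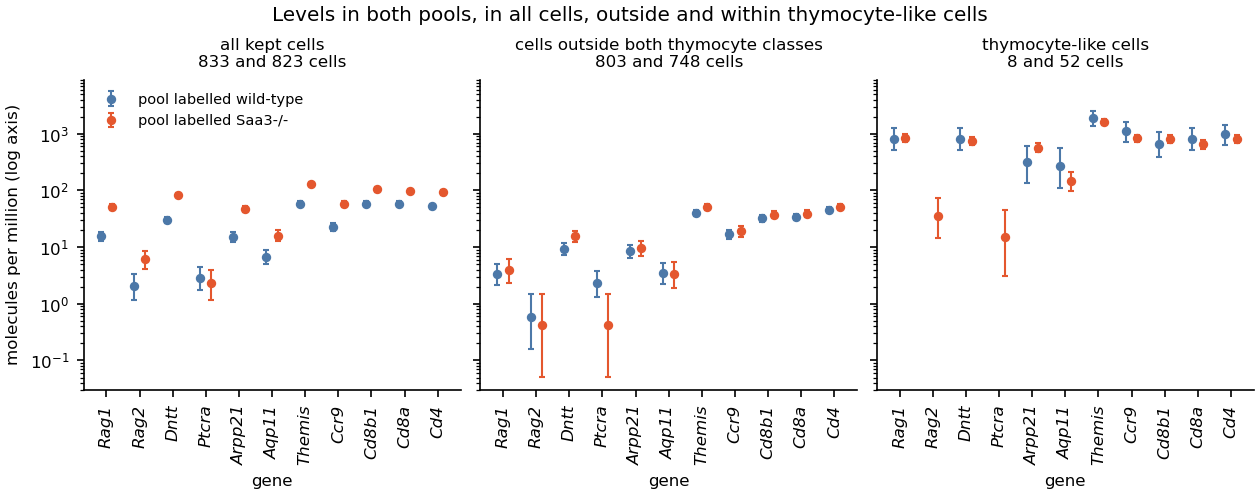
Levels of the 10 genes and Cd4 in the pool labelled wild-type (blue) and the pool labelled Saa3-/- (orange), in CPM on a log axis with exact 95% Poisson intervals, over all kept cells, over the cells outside the thymocyte-like and cycling T-lineage classes, and over thymocyte-like cells; a level of 0 has no point. Rag1 lies at 15.5 and 51.4 CPM over all kept cells, at 3.33 and 3.94 CPM outside those classes and at 822 and 839 CPM in thymocyte-like cells.

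The pools differed in the number of thymocyte-like cells. There were 8 in the pool labelled wild-type (0.960%, 0.416 to 1.88) and 52 in the pool labelled Saa3-/- (6.32%, 4.75 to 8.20). Cycling T-lineage cells numbered 22 (2.64%) and 23 (2.79%). Since 52 of 60 thymocyte-like cells came from 1 pool, a cell type and a feature of that pool cannot be told apart for this cluster. Of thymic epithelial markers, Psmb11 had no molecule in either pool, Foxn1 had 2 in all, Krt5 2, Krt8 1 and Prss16 7, while Epcam had 92 and Ccl25, the CCR9 ligand, 85 (43 and 42). The part of cells from thymic tissue was not tested.

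Over T-lineage cells together (thymocyte-like, cycling T-lineage, T-cell-like and gamma-delta T-like cells and cluster 7), 6 of 9 genes were at least 2-fold higher in the pool labelled Saa3-/-, where 6.94% of 9761 genes passed that size in either direction and 3.62% were higher. Over the thymocyte-like and cycling T-lineage cells together, 30 and 75 cells, it was 7 of 9, where 22.5% of 6584 genes passed it and 14.3% were higher.

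With the thymocyte-like and cycling T-lineage cells left out, 803 and 748 cells remained, and none of the 8 genes with enough molecules differed by 2-fold, where 3.72% of 13884 genes did. Rag1 had 23 and 19 molecules (log2 ratio 0.25), Dntt 65 and 75 (0.72), Arpp21 58 and 46 (0.19), Aqp11 24 and 16 (-0.05) and Ccr9 116 and 91 (0.17). Themis had 276 and 248 (0.36), Cd8b1 221 and 181 (0.23) and Cd8a 233 and 187 (0.20). Rag2, with 4 and 2 molecules, and Ptcra, with 16 and 2, had too few for a ratio. The intervals of the pools overlapped for all but Dntt (7.26 to 12.0 and 12.2 to 19.5 CPM) and Themis (35.4 to 44.9 and 45.2 to 58.2 CPM).

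Within the thymocyte-like cells, again none of 8 genes differed by 2-fold between the pools, where 24.6% of 2694 genes did. Rag1 was at 822 CPM (21 molecules) and 839 CPM (166 molecules), and Dntt at 822 and 743 CPM (-0.18). Themis was at 1879 and 1622 CPM (-0.23), Ccr9 at 1096 and 828 CPM (-0.43), Arpp21 at 313 and 571 CPM (0.78) and Aqp11 at 274 and 146 CPM (-0.98). Cd8b1 was at 666 and 813 CPM (0.25), Cd8a at 822 and 647 CPM (-0.37) and Cd4 at 979 and 803 CPM (-0.31). Rag2 (0 and 7 molecules) and Ptcra (0 and 3) were too few. Both Cd4 and Cd8b1 were found in 7 of 8 and 39 of 52 cells. The summed level of the 10 genes was 6695 and 6259 CPM. Of 40 genes of the other lists with enough molecules in these cells 10 (25%) passed 2-fold, a share near the 24.6% of all genes. They were lower in the pool labelled Saa3-/- for Klf2 (14 and 19 molecules, -2.53), Gata3 (7 and 19, -1.58), Trac (35 and 97, -1.50), Lig4 (6 and 19, -1.37), Tcf4 (5 and 19, -1.13), Tox (21 and 78, -1.09) and Cd3e (30 and 113, -1.06). Pcna (4 and 70, 1.02) was higher, as were Lef1, with 1 and 52 molecules, and Cd69, with 0 and 43. These ratios set 8 cells against 52. For the 10 genes from Rag1 to Cd8a, not those of the other lists, the pools' intervals all overlapped. With 8 cells on 1 side they are wide (Rag1, 509 to 1257 and 716 to 976 CPM).

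Within the cycling T-lineage cells 8 of 9 genes were at least 2-fold higher in the pool labelled Saa3-/-, where 19.3% of 5258 genes passed that size and 10.2% were higher. Aqp11 was at 50.8 and 185 CPM (log2 ratio 1.84), Rag2 at 31.0 and 112 CPM (1.81, with 13 of the latter pool's 23 molecules in 1 cell), Ccr9 at 64.9 and 223 CPM (1.77), Arpp21 at 127 and 418 CPM (1.71) and Dntt at 375 and 1025 CPM (1.45). Rag1 was at 195 and 408 CPM (1.07), Themis at 279 and 578 CPM (1.05) and Cd8a at 480 and 971 CPM (1.02). Cd8b1, at 530 and 981 CPM (0.89), was the gene below 2-fold. The summed level was 2147 and 4935 CPM, a log2 ratio of 1.20. This ratio depended on which cells the class held: it was 0.81 at a finer clustering, 0.52 with the 10 genes among those clustered on, 0.53 with all deposited cells, 0.82 when 5 rather than 3 of the 8 T-lineage genes were required, and 0.79 with thinned cells, all below 2-fold. The median depth was 12440.5 molecules in the pool labelled wild-type and 8938 in the other, and 6 of the 22 cycling T-lineage cells labelled wild-type had neither Cd4 nor Cd8b1. The part of depth and of cell mixture in this difference was not tested.

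In cluster 7, 1 of 6 genes differed by 2-fold between the pools, where 11.3% of 3913 genes did and 5.24% were lower: Ccr9 was at 259 CPM in the pool labelled wild-type and 129 CPM in the other.

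Counted in cells, at least 5 of the 10 genes were found in 29 of 833 cells labelled wild-type (3.48%, 2.34 to 4.96) and in 72 of 823 labelled Saa3-/- (8.75%, 6.91 to 10.9). The latter share was higher by 5.27 percentage points (2.98 to 7.64). At least 3 were found in 9.72% and 12.9%, which differ by 3.16 points (0.102 to 6.22). Both Cd4 and Cd8b1 were found in 39 cells (4.68%, 3.35 to 6.34) and 70 cells (8.51%, 6.69 to 10.6), which differ by 3.82 points (1.44 to 6.26). Thymocyte-like cells made up 8 of the former 29 and 48 of the latter 72 cells with at least 5 of the genes, and cycling T-lineage cells 12 and 22.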

How the data were processed

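Cells sorted from aortic arches were measured on BD Rhapsody. The authors deposited, per the file headers, output of the BD Rhapsody WTA Analysis Pipeline 1.11.1 on GRCm38 with GENCODE M19: counts of distinct molecules per gene and cell in 1 table per sample tag. R 4.3.1 and Seurat 4.3.0 are named in the submitters' processing notes. The deposited tag calls, which take no numeric unit, listed 2401 putative cells, 647 of them undetermined and 11 multiplets, which are absent from both tables; the pools' names come from the table names alone.

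Cells with over 25% mitochondrial molecules were removed, which left 7289593 and 5231922 molecules. Clustering (scanpy 1.11.5, Leiden at resolution 1, 2000 variable genes, 30 components) left out the 10 genes, Cd4 and Saa3. A cluster was named where at least 3 markers of a type were found in 25% of cells. Further rules were chosen after seeing the data: a marker score of at least 0.5, no name where more markers of another type were among the 10 leading genes, and the split of cycling cells by at least 3 of 8 T-lineage genes. Doublets were called with Scrublet (10 cells, 3 of them in the 105 thymocyte-like and cycling T-lineage cells) and were not removed. Levels are molecules of a class's or pool's sum scaled to 1000000 (CPM). Ratios are log2 with 0.5 molecules added, given for genes with at least 20 molecules in both groups together, and 2-fold was the size counted. Genes named by rule were the 10 members and Cd4, the 3 genes of each list with most molecules in thymocyte-like cells, list genes past 2-fold between the pools in those cells, and the 10 genes most correlated with the members' mean on a log scale; not all are printed. The members and lists were chosen with earlier results of these data known. With 1 pool per genotype there was no test. Alternatives were TMM scaling (edgeR 4.0.16), thinning, filters, clustering settings and class rules. The ratio was checked on simulated data. The result of 1 gene of the lists of other pathway genes is not reported here.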

Additional observations from a re-analysis of the deposited data

How the results depend on the processing

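No paired analysis was possible because the aortic arch data are 1 multiplexed sample with 1 pool per genotype and no test. At a log2 ratio of at least 1.5 the number of the 10 genes past the size between the pools was 3 in place of 7. Over all genes 1.26% passed that size, in place of 4.21%. Under 9 other settings the number was 5 to 7, the lowest with thinned cells, where 3.97% of all genes passed. The share of all genes under these 9 ran from 2.34% with at least 50 molecules to 23.2% with no minimum of molecules. Of 100 log2 ratios of single genes, 8 fell below the size counted or could not be called, 1 passed it (Ptcra, -1.21 with each cell weighing the same) and none changed sign. Aqp11 was at 0.58 with thinned cells and 0.73 with each cell weighing the same. The share of the 10 genes' molecules in thymocyte-like and cycling T-lineage cells was 58.4% at resolution 0.5, 58.2% with the 10 genes and Cd4 among those clustered on and 59.6% with all deposited cells, in place of 62.6%. The difference between pools in cells with both Cd4 and Cd8b1 was 2.97 to 3.96 percentage points over 7 settings, and in cells with at least 3 of the genes 3.02 to 6.00 points. The summed level in thymocyte-like cells had a log2 ratio between the pools of -0.10 to 0.51 over 9 settings, and in cycling T-lineage cells of 0.52 to 1.30 over 10; these settings were chosen after seeing the data. Rag2 and Ptcra are limited by depth.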

Other observations

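Some of the genes were found in cells that carried no thymocyte name. Macrophage-like cells were 2 clusters. In cluster 0, of 179 cells, Cd8a had 22 molecules and Cd8b1 had 5, so that Cd8a made up 81.5% (61.9 to 93.7). In cluster 1, of 176 cells, the counts were 19 and 18, or 51.4%. Cd4 was found in the macrophage-like cells at 40.6 CPM (34.4 to 47.6). Outside the thymocyte-like and cycling T-lineage cells, 16 Ptcra molecules came from cells labelled wild-type and 2 from cells labelled Saa3-/-. The surrogate light chain genes of B cell progenitors, cells that also recombine receptor genes, were nearly absent from all kept cells, with 7 molecules of Vpreb1 and 2 of Igll1.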
